A study of Mus musculus with 8 samples.

Results

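Gene expression was compared between the CD16/32HI and the CD16/32LO cells of tail tumors from 2 IL-15+/+ TAX-LUC mice. Each mouse gave 1 array per population, so that 4 of the 8 arrays of the series enter, and 21789 probe sets with exactly 1 gene symbol (19938 symbols) were described. All 4 arrays came from mice that carry the Tax and the luciferase transgenes (TAX+, LUC+) and have intact Il15. Tax, an oncogene of the human retrovirus HTLV-1, is driven in this strain by the granzyme B promoter, which is active in cytotoxic lymphocytes, and luciferase is driven by the viral long terminal repeat, which Tax activates. The mouse of replicate 1 (mouse 1) was 14 months old and the mouse of replicate 2 (mouse 2) was 12 months old. Tumors arose spontaneously and were dissociated, and the cells were treated with an Fc block, itself an antibody against CD16/32, then stained with anti-CD16/32 and sorted. The study describes CD16/32HI cells as enriched in malignant large granular lymphocytes and CD16/32LO cells as infiltrating cells enriched in neutrophils. The other 4 arrays, from IL-15-/- TAX-LUC mice of the same ages, are used below only where they are named.

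CD16 and CD32 are low affinity receptors for the constant part of IgG, encoded by Fcgr3 and Fcgr2b. They are found on NK cells, macrophages, neutrophils and other myeloid cells, and B cells carry only the inhibitory CD32. Large granular lymphocytes are cytotoxic lymphocytes of the NK or T lineage that store granzymes and perforin in their granules. Macrophages clear dead cells and particles and display antigen on MHC class II, whereas neutrophils are short-lived phagocytes that leave the bone marrow with preformed granules.

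The comparison asks which transcripts each sorted population holds. All values are log2 RMA signals of 1 probe set, a difference is CD16/32HI minus CD16/32LO within a mouse averaged over both mice, and a difference of 1 is 2-fold. Where a gene has several probe sets, the brightest one over the 8 arrays is given. Of the 21789 probe sets, 1013 (4.65%) were called higher in CD16/32HI cells and 1204 (5.53%) higher in CD16/32LO cells by limma with the mouse as a block, at a Benjamini-Hochberg adjusted p under 0.05. All 2217 had the same direction in both mice. By size alone, 296 probe sets (1.36%) were at least 2-fold higher in CD16/32HI cells in both mice and 397 (1.82%) at least 2-fold higher in CD16/32LO cells in both mice, and all of them were also called. The larger differences lay on the CD16/32LO side, where 117 called probe sets exceeded 4-fold and 24 exceeded 8-fold, against 51 and 1 on the CD16/32HI side. The median difference over all probe sets was 0.04.

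These calls rest on 2 mice and 1 residual degree of freedom, so that the spread is borrowed almost wholly across probe sets. The number called was 611 with no replicate block and 0 when the 12147 probe sets that are not listed in the gene table and the 1621 with several symbols were tested as well (3416 at an unadjusted p under 0.05), so a call is best read together with the 4 array values. Nothing beyond the labels shows that the replicates are more than these 2 mice, and mouse, age and the set of arrays normalized together coincide. The p-values reflect mostly the spread shared across probe sets and cover these samples only, a spread that may be technical.

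**Figure D1:**
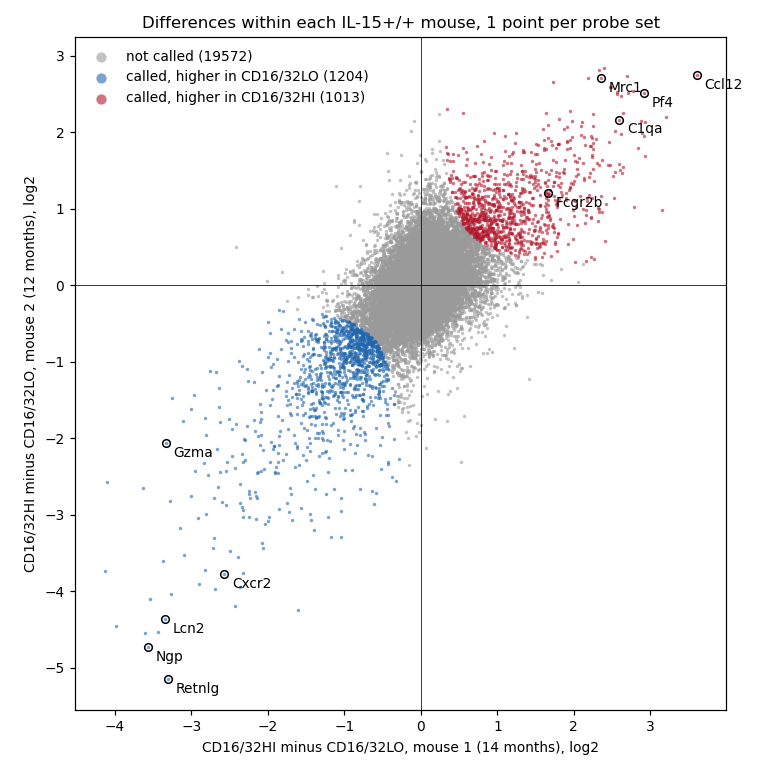
Difference between CD16/32HI and CD16/32LO cells in mouse 1 (horizontal axis, log2) and mouse 2 (vertical axis, log2), with 1 point for each of 21789 probe sets and colours for the calls. Called probe sets lie in the lower left (1204, higher in CD16/32LO) and upper right (1013, higher in CD16/32HI), and the lower left reaches farther from 0, with Retnlg and Ngp past -3 in both mice.

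The transcripts of the sort gate did not all follow the gate. The gate read protein on the cell surface and the arrays read RNA, so a level transcript does not show how the protein differed. Fcgr2b, the gene of CD32, was at 10.98 and 10.38 in the CD16/32HI arrays of mouse 1 and mouse 2 and at 9.31 and 9.18 in the CD16/32LO arrays. Both CD16/32HI arrays were above both CD16/32LO arrays, and the difference was 1.43 (SE 0.20, adjusted p = 0.00134 from limma). Fcgr3, the gene of CD16, was at 10.97 and 10.59 in CD16/32HI and at 10.64 and 10.93 in CD16/32LO arrays. The groups overlapped and the mice ran in opposite directions, with a mean difference of -0.00 (SE 0.21, adjusted p = 0.997). Fcgr1, the high affinity receptor of macrophages and monocytes, was at 9.60 and 9.19 against 7.09 and 7.76 and was called higher in CD16/32HI cells by 1.97 (SE 0.25). Fcgr4 (9.39 and 8.32 against 9.05 and 8.95) and Fcer1g, the signaling chain these receptors share (11.85 and 10.92 against 11.70 and 11.46), were not called.

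Transcripts of NK cells and large granular lymphocytes were not higher in the CD16/32HI cells. Of 34 measured genes of this list, 0 were called higher in CD16/32HI cells and 15 (44.1%) were called higher in CD16/32LO cells, against 4.65% and 5.53% of all probe sets, with a median difference of -0.58. With no replicate block 0 and 4 were called, beside 271 and 340 of all 21789 probe sets. At an unadjusted p under 0.05 the counts were 0 and 21, beside 5181 of the 21789 in both directions together. Counts at this level in the lists below stand beside the same number. In 0 of the 34 was the difference positive in both mice, and in 27 it was negative in both. The shares of all probe sets with such signs were not counted. Relative to CD16/32LO cells, the expression of these genes in the 4 arrays thus goes against the description of CD16/32HI cells as malignant large granular lymphocytes. The study's description also rests on stained tumor sections and earlier work. CD16/32LO cells held T cell transcripts as well (below), and Tax was not examined here. The populations are named here by their sort gate. In RNA of a sorted population, fewer cells of a type and less RNA per cell cannot be told apart.

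Gzma, a granule protease of cytotoxic lymphocytes, was at 5.46 and 5.31 in CD16/32HI arrays and at 8.80 and 7.37 in CD16/32LO arrays. Gzmb, whose human promoter drives the Tax transgene, was at 6.18 and 4.87 against 8.29 and 6.43. Both CD16/32LO arrays exceeded both CD16/32HI arrays in each gene, with differences of -2.70 (SE 0.27, adjusted p = 0.000192 from limma) and -1.83. The granule membrane protein Nkg7 was at 6.61 and 6.12 against 8.51 and 8.57 (difference -2.18), and the inhibitory lectin receptor chain Klrc1 was at 4.24 and 3.80 against 6.71 and 6.03 (-2.35). The chemokine Xcl1 (-1.91), the receptor chain Klrd1 (-1.23), the cytokine Ifng (-1.18) and Il2rb, a subunit of the receptors for IL-2 and IL-15 (-1.13), were called in the same direction. Prf1, which encodes the pore-forming protein perforin, had 6.25 and 6.05 against 6.46 and 6.20 and was not called (-0.18), and neither were Ncr1 (-0.51) or the lineage factors Tbx21 (-0.04) and Eomes (-0.46).

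**Figure D2:**
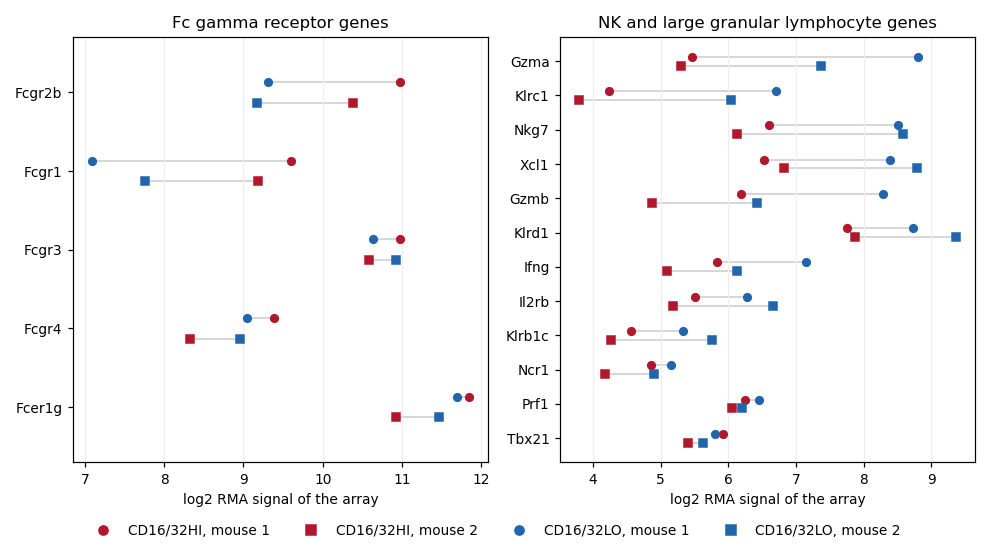
Log2 RMA signal (horizontal axis) of the 5 Fc gamma receptor genes and of 12 of the 34 NK and large granular lymphocyte genes in each of the 4 arrays, red for CD16/32HI, blue for CD16/32LO, circles for mouse 1, squares for mouse 2, with a line joining the arrays of a mouse. Fcgr2b and Fcgr1 are higher in red in both mice, Fcgr3 and Fcgr4 change order between mice, and Gzma, Klrc1, Nkg7 and Xcl1 are higher in blue in both mice.

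Macrophage transcripts were higher in the CD16/32HI cells. Of 23 measured monocyte and macrophage genes, 15 (65.2%) were called higher in CD16/32HI cells and 0 higher in CD16/32LO cells, with a median difference of 1.05, and 12 were at least 2-fold higher in both mice. C1qa, C1qb and C1qc encode the chains of the complement protein C1q, which tissue macrophages make. C1qa was at 10.65 and 10.10 in CD16/32HI arrays and at 8.06 and 7.94 in CD16/32LO arrays (difference 2.38, SE 0.20, adjusted p = 6.98e-05 from limma). C1qc was at 11.37 and 10.82 against 9.27 and 8.68, and C1qb was at 9.81 and 9.32 against 7.57 and 7.40. All 3 chains were higher in both CD16/32HI arrays than in either CD16/32LO array.

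The mannose receptor Mrc1 was at 11.19 and 11.20 against 8.83 and 8.50 (2.53), and Mertk, a receptor for dying cells, was at 8.88 and 8.63 against 6.56 and 5.82 (2.57). The scavenger receptor Msr1 (11.39 and 11.33 against 9.14 and 9.10), the monocyte chemokine receptor Ccr2 (11.66 and 11.57 against 9.68 and 9.43) and the lipid carrier Apoe (12.24 and 12.31 against 10.72 and 10.48) were likewise separated in both mice. The differences were smaller for Csf1r, the receptor for the macrophage growth factor CSF-1 (0.87), and for the lysosomal protein Cd68 (0.97), which were called. The 8 members that were not called included Adgre1, a surface antigen of mouse macrophages, at 9.87 and 9.63 against 9.66 and 9.67 (0.09), and Lyz2 (0.37), Cd163 (0.43), Vsig4 (0.41), Folr2 (0.36), Marco (-0.00) and Lyve1 (-0.06), the last 5 of which mark subsets of resident macrophages.

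Among all genes, the largest difference toward CD16/32HI cells was that of Ccl12, a chemokine that attracts monocytes, at 10.82 and 9.79 against 7.21 and 7.05 (difference 3.17, SE 0.23, adjusted p = 4.07e-05 from limma). Pf4, a chemokine of platelets and also of macrophages, followed with 11.38 and 10.61 against 8.47 and 8.10 (2.71). Of the platelet and erythroid list, only Ppbp, another platelet chemokine, was called (7.89 and 6.61 against 5.89 and 5.24), and the platelet glycoprotein genes Gp9 (-0.06), Gp5 (0.07) and Itga2b (-0.12) were not. The other genes among the 12 largest were the prostaglandin-degrading enzyme Hpgd (2.71), the monocyte chemokine Ccl8 (2.70), Depdc7 (2.66), the collagenase Mmp13 (2.62), the membrane protein Ms4a7 (2.62), Mertk, the transporter Abca9 (2.55), the peptidase Cpq (2.55), Gm10522 (2.54) and the lectin receptor Clec4a1 (2.53). Each of the 12 was at least 2.13 higher in CD16/32HI cells in either mouse.

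Macrophage genes and granule genes of the opposite population are shown with the letters before their starts, chosen from genes that were called and whose populations did not overlap. The windows run from 250 bases before to 50 after the start of the gene (RefSeq, GRCm38.p6, printed on the strand of the gene), and capitals mark GAGGAA, the core bound by the myeloid factor PU.1, and TTGCNNAA, a pair of half-sites for C/EBP factors, each on either strand. For the macrophage genes Mrc1 (chr2:14229164-14229463, + strand) and C1qc (chr4:136892865-136893164, - strand) and the neutrophil granule genes Lcn2 (chr2:32387690-32387989, - strand) and Ngp (chr9:110419558-110419857, + strand) the windows read:
Mrc1: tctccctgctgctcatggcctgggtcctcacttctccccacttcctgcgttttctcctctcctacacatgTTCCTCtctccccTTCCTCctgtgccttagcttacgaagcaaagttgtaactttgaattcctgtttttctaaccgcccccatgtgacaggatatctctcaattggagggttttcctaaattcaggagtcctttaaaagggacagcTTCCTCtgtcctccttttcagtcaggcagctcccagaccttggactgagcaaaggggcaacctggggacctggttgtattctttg
C1qc: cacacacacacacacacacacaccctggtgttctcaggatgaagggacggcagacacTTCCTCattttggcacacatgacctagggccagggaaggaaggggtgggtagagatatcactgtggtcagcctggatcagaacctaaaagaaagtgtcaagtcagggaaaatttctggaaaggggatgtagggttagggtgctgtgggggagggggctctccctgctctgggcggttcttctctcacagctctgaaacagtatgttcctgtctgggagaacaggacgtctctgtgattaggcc
Lcn2: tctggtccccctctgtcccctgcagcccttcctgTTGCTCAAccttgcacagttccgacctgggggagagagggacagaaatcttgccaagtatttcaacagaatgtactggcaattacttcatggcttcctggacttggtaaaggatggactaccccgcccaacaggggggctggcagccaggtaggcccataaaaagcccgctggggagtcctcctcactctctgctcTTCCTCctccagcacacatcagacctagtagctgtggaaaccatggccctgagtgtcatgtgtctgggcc
Ngp: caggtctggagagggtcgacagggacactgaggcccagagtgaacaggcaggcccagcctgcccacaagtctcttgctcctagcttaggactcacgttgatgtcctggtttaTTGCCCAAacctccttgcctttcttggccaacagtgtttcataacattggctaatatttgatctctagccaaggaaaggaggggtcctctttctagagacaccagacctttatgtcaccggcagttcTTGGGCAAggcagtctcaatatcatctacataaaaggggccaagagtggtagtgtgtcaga
Mrc1 held the PU.1 core 3 times and C1qc once, Ngp held the C/EBP pair at 2 positions, and Lcn2 held both kinds of letters. Other windows that were searched did not all divide in this way. C1qb, Ccl12, Csf3r and Gzma held the PU.1 core at 1 position and Cxcr2 at 2, all without the C/EBP pair. Retnlg held only the C/EBP pair, Pf4 held both kinds, and Fcgr2b and Hdc held neither. Over whole groups the letters were spread more evenly. Among the 15614 tested genes with a window in the RefSeq table, 27.0% held GAGGAA and 9.68% held TTGCNNAA. Of genes called higher in CD16/32HI cells by their brightest probe set (753 with a window), 29.3% held the former and 10.2% the latter, and of those called higher in CD16/32LO cells (851 with a window) 31.6% and 9.64%. A match is a description of these letters only.

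The CD16/32LO cells held the neutrophil transcripts. Of 19 measured genes of mature neutrophils, 17 (89.5%) were called higher in CD16/32LO cells and 0 higher in CD16/32HI cells, with a median difference of -2.14, and 16 were at least 2-fold apart in both mice. Cxcr2, the receptor for neutrophil-attracting chemokines, was at 9.86 and 8.43 in CD16/32HI arrays and at 12.43 and 12.21 in CD16/32LO arrays (difference -3.18, SE 0.26, adjusted p = 6.98e-05 from limma). Csf3r, the receptor for the granulocyte growth factor G-CSF, was at 7.46 and 7.38 against 10.37 and 10.42 (-2.98), and Hdc, the enzyme that makes histamine, was at 6.18 and 5.35 against 9.55 and 8.96 (-3.49). In each of these genes both CD16/32LO arrays were above both CD16/32HI arrays by more than 2 on the log2 scale.

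Retnlg, a secreted protein of neutrophils, had the largest mean difference of all genes, with 5.58 and 5.92 against 8.88 and 11.07 (-4.23, SE 0.34), and was higher by 5.15 in the CD16/32LO cells of mouse 2 and by 3.30 in those of mouse 1. The gelatinase Mmp9 (5.75 and 5.12 against 8.46 and 8.56) and the surface antigen Cd177 (6.57 and 6.35 against 8.74 and 9.05) were apart in both mice. The alarmins S100a8 (11.49 and 10.85 against 12.78 and 12.85) and S100a9 (11.50 and 11.05 against 12.78 and 12.98) differed less. Ly6g, the antigen used to stain neutrophils, was at 3.87 and 4.54 against 5.28 and 5.82 (-1.35). Mmp8 (-0.75) and Padi4 (0.40) were not called.

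The genes of neutrophil precursors followed those of mature neutrophils in part. Of 16 measured, 7 (43.8%) were called higher in CD16/32LO cells, against 5.53% of all probe sets. The 1 (6.25%) called higher in CD16/32HI cells was near the 4.65% of all probe sets. With no replicate block 4 and 0 were called. Those higher in CD16/32LO cells included the granule proteins Ngp (5.13 and 6.23 against 8.70 and 10.97), Lcn2 (6.53 and 5.82 against 9.87 and 10.19), Ltf (5.17 and 5.21 against 5.97 and 7.17) and the factor Cebpe, which drives late granule genes (6.46 and 6.01 against 7.30 and 8.10). The list's median was -0.26 in mouse 1 and -1.26 in mouse 2, and the antimicrobial peptide gene Camp, at 5.85 and 5.20 against 5.88 and 7.13, was apart in mouse 2 and level in mouse 1 (not called). The enzymes of primary granules did not share this direction. Mpo was called higher in CD16/32HI cells (6.19 and 6.18 against 5.78 and 4.84, difference 0.88, adjusted p = 0.0413 from limma), and Elane (0.25), Ctsg (0.27) and Prtn3 (-0.17) were not called. The call of Mpo was lost in 7 alternatives, among them the one with no replicate block.

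The remaining genes among the 12 largest toward CD16/32LO cells were Slco4c1, an organic anion transporter (5.14 and 4.77 against 9.13 and 9.23), the carbonic anhydrase Car4 (6.96 and 6.84 against 10.56 and 11.39), Ceacam10 (-3.99), Mctp2 (4.77 and 4.61 against 8.90 and 8.34), Adam28 (6.40 and 6.11 against 9.94 and 10.22), the hemoglobin-binding protein Hp (-3.65), the peptidoglycan-binding granule protein Pglyrp1 (-3.40) and Rasgrp3, an activator of Ras signaling (-3.34). No array of one population overlapped the other in any of them.

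**Figure D3:**
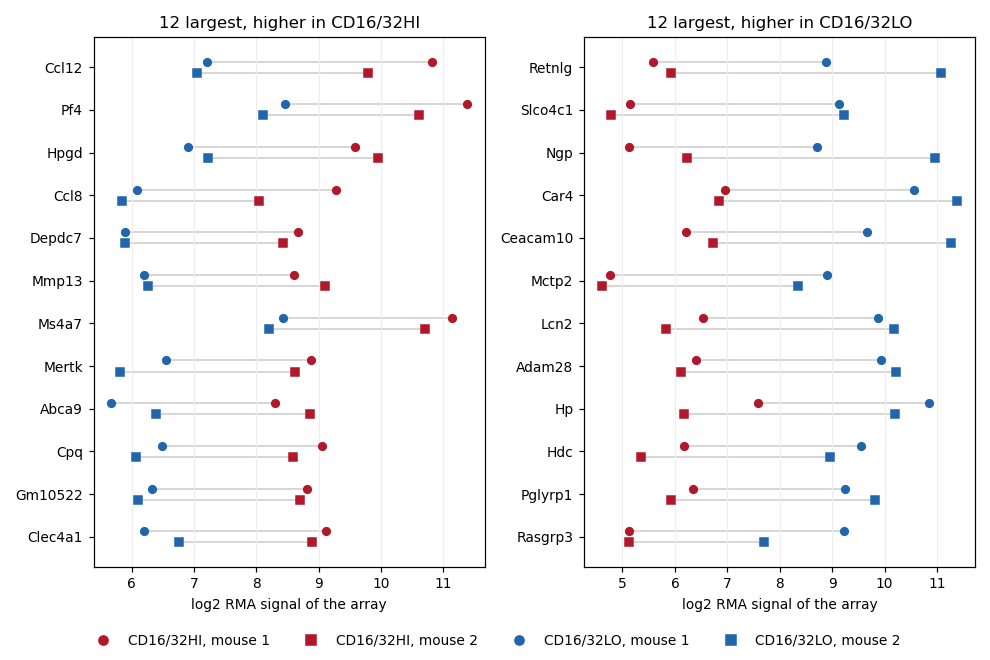
Log2 RMA signal (horizontal axis) in the 4 arrays for the 12 genes with the largest mean difference in each direction, red for CD16/32HI, blue for CD16/32LO, circles for mouse 1, squares for mouse 2. Red and blue are apart in both mice for all 24 genes, from 3.17 for Ccl12 on one side to -4.23 for Retnlg on the other.

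Lymphocyte transcripts were also on the CD16/32LO side. Of 20 measured T cell genes, 9 (45.0%) were called toward the CD16/32LO side and 0 toward the CD16/32HI side (12 and 1 at an unadjusted p under 0.05), with a median difference of -0.69. Of the CD3 chains that transmit the T cell receptor signal, Cd3g was at 7.24 and 6.77 against 9.60 and 9.62 (-2.61) and Cd3d at 7.19 and 5.61 against 8.87 and 8.67 (-2.37). Cd3e (6.08 and 5.76 against 6.72 and 6.41) and Cd247 (-0.07) were not called. The coreceptor chains Cd8b1 (5.72 and 5.82 against 7.60 and 8.13) and Cd8a (-1.33) were called, as was Thy1 (-2.14), whereas Cd4 was at 6.19 and 5.99 against 5.601 and 5.49 and was not called (0.54, adjusted p = 0.104 from limma).

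Of 16 B cell and plasma cell genes, 9 (56.2%) were called toward the CD16/32LO side and 0 toward the other (11 and 0 at an unadjusted p under 0.05). With no replicate block 1 of the 9 was called. Ms4a1, the gene of CD20, was at 5.08 and 5.09 against 8.09 and 6.71, the lineage factor Ebf1 at 4.90 and 4.38 against 7.86 and 5.82, and the complement receptor Cr2 at 5.16 and 4.86 against 7.84 and 5.998. In all 3 the CD16/32LO array of mouse 1 was the highest.

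Dendritic cell genes were found on both sides. Of 18, 5 were called higher in CD16/32LO and 2 higher in CD16/32HI cells. Clec9a (4.21 and 3.92 against 5.01 and 6.59) and Xcr1 (3.81 and 4.36 against 5.01 and 6.41), receptors of the dendritic cells that cross-present antigen, were higher in CD16/32LO cells, most in mouse 2, as were Flt3 (-1.44), Ccr7 (-1.30) and Itgax (-0.81). Ccl17, a chemokine for T cells, was at 11.81 and 10.47 against 8.66 and 9.48 (2.07), and the lectin Clec10a at 6.16 and 6.58 against 4.38 and 5.49 (1.44). With no replicate block 1 was called in each direction, and Clec9a, Xcr1, Flt3 and Clec10a lost their calls. The call of Flt3 also ended with the arrays centred on their medians.

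Of 7 eosinophil genes, Siglecf (6.95 and 6.28 against 9.50 and 9.16) and the eotaxin receptor Ccr3 (5.83 and 5.20 against 7.08 and 7.38) were called higher in CD16/32LO cells. Neither the granule genes Epx (0.10) and Prg2 (-0.64) nor the receptor Il5ra (0.07) were called. Of 12 mast cell and basophil genes only Hpgds, a prostaglandin D synthase, was called (10.27 and 9.55 against 7.64 and 7.57), and the proteases Cpa3, Tpsb2 and Mcpt4 were not. None of 14 keratinocyte and epithelial genes was called (0 by limma), and 0 were 2-fold apart in both mice. At an unadjusted p under 0.05, 2 had a positive and 1 a negative difference, beside 5181 of all 21789 probe sets. Of 16 fibroblast and endothelial genes, Pecam1 (5.78 and 6.17 against 7.44 and 6.73) and the matrix proteoglycan Dcn (5.70 and 5.06 against 6.51 and 6.03) were called higher in CD16/32LO cells, and the collagens Col1a1 (0.18), Col1a2 (-0.05) and Col3a1 (-0.06) were not.

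**Figure D4:**
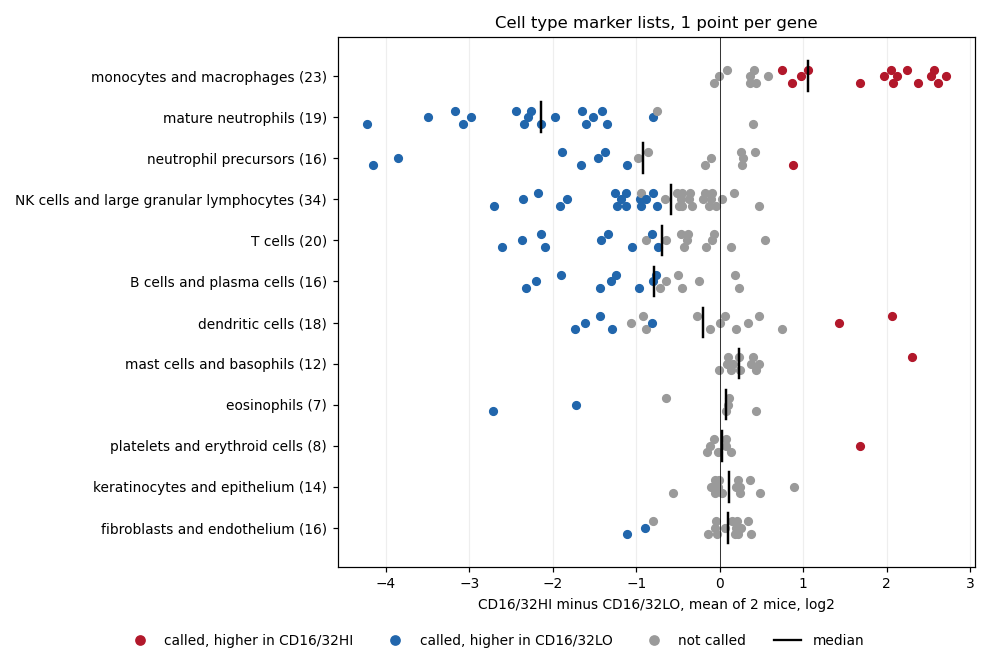
Mean difference between CD16/32HI and CD16/32LO cells (horizontal axis, log2) for each measured gene of the 12 cell type lists, with the number measured in parentheses, colours for the calls and a bar at the median. Macrophage genes lie to the right of 0 (15 of 23 called), mature neutrophil genes to the left (17 of 19 called), and NK, T and B cell genes are called only to the left.

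Genes of antigen display and of the lysosome were called mostly on the CD16/32HI side. The counts of list members rest on the pairing by mouse. Of 57 list counts above 0 in either direction, 41 were over 1.5 times lower with no replicate block. Over all 21789 probe sets the counts fell too, from 1013 to 271 higher in CD16/32HI and from 1204 to 340 higher in CD16/32LO cells. A lower list count with no block is thus not particular to a list, and it stands beside 271 and 340 of the 21789. List counts with the block stand beside 4.65% of all probe sets called higher in CD16/32HI cells and 5.53% higher in CD16/32LO cells. A count of 1 in a list can lie near these shares, as for type I interferon (5.56%) and NF-kB (4.17%) genes toward CD16/32HI cells. Of 12 measured genes of MHC class II presentation, 8 were called higher in CD16/32HI and 2 higher in CD16/32LO cells (median 0.87), although 0 of the 8 reached 2-fold in both mice and 1 of them was called with no replicate block. The class II chains H2-Aa (12.65 and 12.09 against 11.75 and 11.38), H2-Ab1 (12.42 and 12.20 against 11.19 and 11.59) and H2-Eb1 (12.10 and 11.30 against 10.54 and 10.54), the invariant chain Cd74 (1.18), the peptide loader H2-DMa (1.56) and the class II transactivator Ciita (0.98) were higher in CD16/32HI cells. The costimulatory ligands went apart, with Cd86 higher in CD16/32HI cells (9.66 and 9.11 against 8.38 and 8.30) and Cd80 higher in CD16/32LO cells (8.98 and 9.37 against 10.03 and 10.77). H2-Ob, a loading modulator of B cells, was also higher in CD16/32LO cells (-1.19).

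Of 21 lysosomal genes, 9 were called higher in CD16/32HI cells and 1 in the other direction, led by the protease Lgmn (10.27 and 9.72 against 8.02 and 7.94) and the cathepsins Ctsc (1.30) and Ctsl (1.13). With no replicate block 2 of the 9 were called. Ctsk was the 1 gene called in the other direction (6.08 and 5.98 against 6.75 and 7.45). Of 12 complement genes and receptors, the C1q chains and C3ar1, the receptor for the fragment C3a, were called higher in CD16/32HI cells, and the integrin chains Itgam (7.996 and 7.17 against 9.41 and 9.65) and Itgax, which form complement receptors, higher in CD16/32LO cells.

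Genes of lipid and iron handling split by gene. Of 15 lipid genes 5 were called higher in CD16/32HI cells, among them Apoe, the fatty acid binding protein Fabp5 (9.998 and 9.67 against 8.05 and 8.40) and Trem2 (1.05), and the monoacylglycerol lipase Mgll was called higher in CD16/32LO cells (5.40 and 3.91 against 6.44 and 7.19). Of 15 genes of heme and iron handling, 5 were higher in CD16/32HI cells, among them the heme oxygenase Hmox1 (9.48 and 8.25 against 8.06 and 7.52), the biliverdin reductases Blvra (1.24) and Blvrb (1.04), and Spic, a factor of red pulp macrophages (6.69 and 6.65 against 4.89 and 4.80). The 4 higher in CD16/32LO cells were the secreted binding proteins Lcn2 and Hp, the iron exporter Slc40a1 (5.81 and 5.57 against 7.66 and 7.47) and the transferrin receptor Tfrc (6.70 and 6.50 against 7.99 and 7.97).

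Chemokine genes and chemokine receptor genes showed opposite balances. Of 14 CC chemokines, 5 were called higher in CD16/32HI cells (Ccl12, Ccl8, Ccl17, Ccl9 and Ccl7) and 2 higher in CD16/32LO cells, namely Ccl3 (8.23 and 7.08 against 10.15 and 9.52) and Ccl5 (9.79 and 8.47 against 10.66 and 10.10). Of 13 CXC chemokines, 4 were called higher in CD16/32HI cells, among them Cxcl16 (10.51 and 9.82 against 8.21 and 8.22) and the interferon-induced Cxcl9 (9.27 and 6.94 against 6.48 and 5.91). Cxcl3, a ligand of Cxcr2, was called higher in CD16/32LO cells (6.90 and 6.64 against 8.63 and 8.52), and Cxcl2 (-0.62) and Cxcl1 (0.26), which bind the same receptor, were not called. Of 14 receptors, 8 were called higher in CD16/32LO cells, among them Cxcr2, Ccrl2 (-1.58), Cxcr6 (-1.48) and Cxcr4 (-0.80), and the 2 called higher in CD16/32HI cells were the monocyte receptors Ccr2 and Cx3cr1 (9.03 and 8.72 against 7.39 and 6.94).

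The IL-1 family lay mostly on the CD16/32LO side. Of 16 measured genes, 9 (56.2%) were called higher in CD16/32LO cells and 1 higher in CD16/32HI cells, with a median of -0.98. Il1a was at 7.86 and 7.26 in CD16/32HI arrays and at 10.19 and 10.19 in CD16/32LO arrays (-2.63, SE 0.21, adjusted p = 5.75e-05 from limma), and Il1b was at 11.45 and 10.79 against 12.45 and 12.08 (-1.15). Il1f9, listed on the array under the older symbol of the gene of IL-36 gamma, was at 6.10 and 6.18 against 8.53 and 10.37. The receptor chains Il18r1 (6.72 and 5.85 against 8.71 and 8.88) and Il18rap (-1.92), the decoy receptor Il1r2 (-1.41) and the antagonist Il1rn (-1.30) were higher in CD16/32LO cells too. Il18 was the 1 called the other way, at 7.48 and 6.54 against 5.21 and 6.20 (1.30, adjusted p = 0.0420 from limma). That count (6.25%) is near the 4.65% of all probe sets. The difference of Il18 was 0.34 in mouse 2, and its call was lost with no replicate block.

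Receptors and ligands of myeloid growth factors were found in opposite populations for CSF-1. Csf1 was at 5.81 and 5.62 in CD16/32HI arrays and at 8.52 and 8.40 in CD16/32LO arrays (-2.75), and its receptor Csf1r was at 9.93 and 9.75 against 8.89 and 9.04. Csf2rb, the shared chain of the receptors for GM-CSF, IL-3 and IL-5, was higher in CD16/32LO cells (-1.24), and Il6 was called higher in CD16/32HI cells at low signals (4.08 and 5.17 against 3.51 and 4.01). Of 12 common gamma chain cytokines and receptors, Il15 itself was at 5.40 and 5.18 in CD16/32HI arrays and at 6.42 and 6.88 in CD16/32LO arrays (-1.36, SE 0.22, adjusted p = 0.00286 from limma). Il2rb, Il2ra (-0.94) and Il4ra (-0.91) were called in the same direction, Il21r in the other (0.77), and Il15ra was not called (-0.28).

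Of 24 NF-kB targets and feedback inhibitors, 7 were called higher in CD16/32LO cells, among them Csf1, the prostaglandin synthase Ptgs2 (6.98 and 7.71 against 10.24 and 9.19) and Gadd45b (-1.88), and Il6 was the 1 called higher in CD16/32HI cells. Nfkbia (-0.36) and Tnf (-0.32) were not called. Of 19 AP-1 and immediate early genes, Klf4 (7.23 and 7.19 against 5.89 and 6.18), Myc (1.13), Atf3 (1.04) and Fosb (0.89) were higher in CD16/32HI cells, and Egr1 (8.06 and 6.31 against 8.74 and 7.86), Klf2 (-1.03), Nr4a1 (-0.89), Ier2 (-0.82) and Egr2 (-0.75) higher in CD16/32LO cells. Egr1 overlapped between the populations across mice and was apart within each.

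Interferon-induced genes did not move as a block. Of 18 type I interferon genes, 4 were called higher in CD16/32LO cells, led by Oasl2 (6.86 and 6.17 against 9.01 and 8.95), and Oas1a was called higher in CD16/32HI cells (0.81). Of 14 interferon gamma genes, Cxcl9, the GTPases Iigp1 (1.19) and Gbp3 (0.74), and Ciita were called higher in CD16/32HI cells and the factor Irf1 higher in CD16/32LO cells (6.88 and 6.23 against 8.35 and 7.58). Pattern recognition receptors were divided, with 8 of 21 called higher in CD16/32HI and 5 higher in CD16/32LO cells. Tlr1 (10.05 and 10.24 against 8.32 and 7.58), Tlr8 (1.45), Tlr7 (1.12), Tlr9 (1.02), Tlr3 (0.83), Tlr2 (0.75) and the TLR4 cofactor Ly96 (1.84) were called higher in CD16/32HI cells, and the lectins Clec4e (8.02 and 7.28 against 10.49 and 9.17) and Clec4d (-1.52), Cd14 (-0.81), the adaptor Myd88 (-0.97) and Nod1 (-0.88) higher in CD16/32LO cells.

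The arginases were apart. Arg1 was at 8.88 and 8.62 in CD16/32HI arrays and at 6.79 and 6.54 in CD16/32LO arrays (2.08, SE 0.19, adjusted p = 0.000107 from limma), whereas Arg2, the mitochondrial form, was at 6.49 and 6.38 against 8.80 and 8.40 (-2.16). Neither gene overlapped between the populations. Cd274, the gene of the checkpoint ligand PD-L1, was higher in CD16/32LO cells (7.49 and 6.86 against 9.001 and 8.54), and Nos2 (0.38) was not called.

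Of 20 matrix and protease genes, 9 were called higher in CD16/32HI cells, among them Mmp13 (8.60 and 9.10 against 6.20 and 6.25), the macrophage elastase Mmp12 (12.24 and 12.28 against 10.50 and 10.94) and fibronectin Fn1 (1.44), and 3 higher in CD16/32LO cells, namely Mmp9, thrombospondin Thbs1 (-1.42) and Adam8 (-0.96). Of 20 integrins and adhesion molecules, Vcam1 (9.61 and 9.34 against 7.70 and 7.28) and the integrin chain Itgb5 (8.88 and 8.87 against 6.96 and 6.98) led the 4 called higher in CD16/32HI cells, and Itgam, Itgal (6.69 and 6.29 against 8.03 and 8.01) and Itga4 (-1.20) led the 7 called higher in CD16/32LO cells. Of 20 myeloid transcription factors 5 were called in each direction. Spic, Zeb2 (9.45 and 9.44 against 7.66 and 7.60), Cebpa (8.62 and 8.94 against 7.28 and 7.19), Tfec (1.43) and Klf4 were higher in CD16/32HI cells, and Cebpe, Id2 (-0.998), Runx1 (-0.92), Hlx (-0.87) and Cebpd (-0.71) higher in CD16/32LO cells. Spi1, the gene of PU.1, was at 8.65 and 8.76 against 8.74 and 9.001 and was not called (-0.16).

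Cell division transcripts were higher in the CD16/32HI cells. Of 31 measured cell cycle and mitosis genes, 18 (58.1%) were called higher in CD16/32HI cells and 0 higher in CD16/32LO cells. The median difference was 0.92. In 28 the difference was positive in both mice, and the share of all probe sets with that sign was not counted. The spindle checkpoint kinase Bub1 was at 7.88 and 7.52 in CD16/32HI arrays and at 5.51 and 5.89 in CD16/32LO arrays (2.01, SE 0.22, adjusted p = 0.000325 from limma). The spindle protein Nusap1 was at 8.41 and 7.81 against 6.21 and 6.63, the hyaluronan receptor Hmmr at 6.72 and 6.47 against 4.75 and 5.13, and the topoisomerase Top2a at 9.28 and 9.39 against 7.63 and 8.09. Both CD16/32HI arrays were above both CD16/32LO arrays in each. The proliferation antigen Mki67 differed less, with 8.19 and 7.61 against 7.15 and 6.98 (0.84). The list's median was 1.15 in mouse 1 and 0.54 in mouse 2, and 6 genes were at least 2-fold apart in both. The replication genes Pcna (0.17), Mcm2 (-0.35), Mcm5 (0.15) and Ccne1 (0.00) were not called. With no replicate block 5 of the 31 were called higher in CD16/32HI cells, beside 271 of all 21789 probe sets.

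Of 32 respiratory chain genes, limma called 0 in either direction (1 higher in CD16/32HI cells at an unadjusted p under 0.05), all differences lay between -0.12 and 0.63, and 0 were 2-fold apart in both mice. Of 22 glycolysis and hypoxia genes, 4 (18.2%, against 5.53% of all probe sets) were called higher in CD16/32LO cells, 1 of them with no replicate block, among them the hypoxia-induced hydroxylase Egln3 (6.44 and 6.09 against 9.53 and 9.62) and the glucose transporters Slc2a3 (-1.09) and Slc2a1 (-0.99), and 0 higher in CD16/32HI cells. Of 14 BCL-2 family genes, only Bcl2l1, which encodes the survival protein BCL-XL, was called (7.63 and 7.31 against 9.01 and 9.02).

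**Figure D5:**
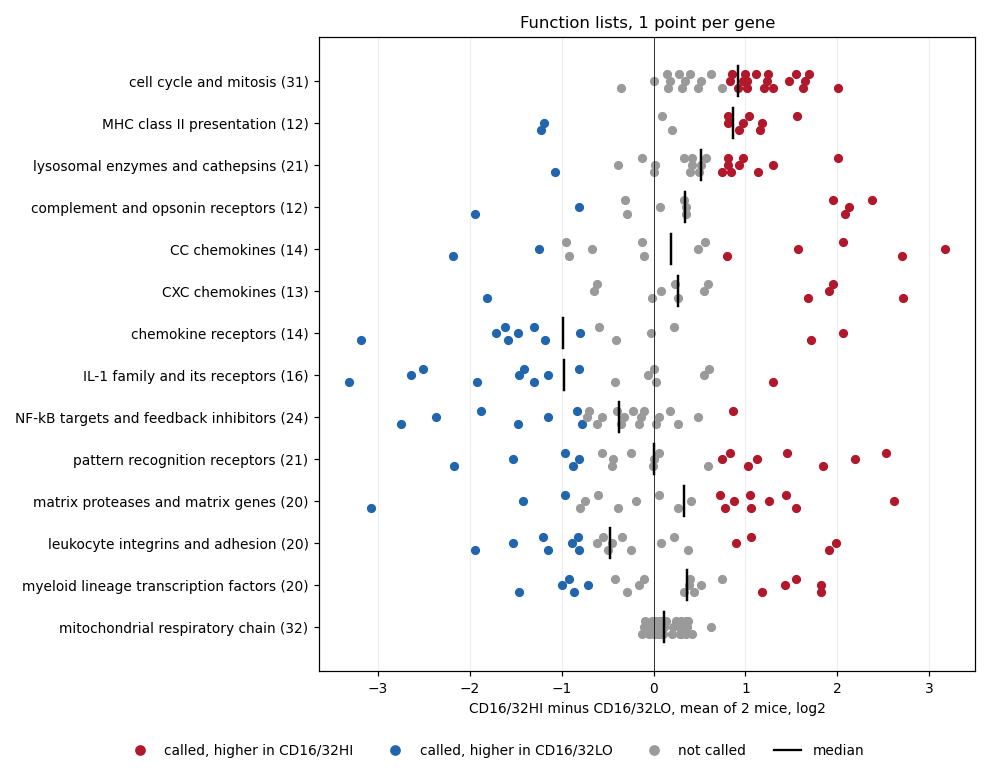
Mean difference between CD16/32HI and CD16/32LO cells (horizontal axis, log2) for each measured gene of 14 function lists, with the number measured in parentheses, colours for the calls and a bar at the median. Cell cycle genes are called only to the right (18 of 31), chemokine receptor and IL-1 family genes mostly to the left (8 of 14 and 9 of 16), and respiratory chain genes stay near 0 with no call.

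Both replicate 1 arrays from IL-15-/- tumors went against their labels. Across probe sets, the array labelled CD16/32HI correlated at 0.988 with the IL-15+/+ CD16/32LO array of replicate 1 and at 0.956 with the CD16/32HI array, and the array labelled CD16/32LO at 0.965 and 0.988. As labelled, the same contrast in the IL-15-/- tumors had the same sign in the mouse of replicate 2 and the opposite sign in the mouse of replicate 1 for most called probe sets. Of the 2217, 94.9% kept their sign in the former and 4.56% in the latter (64.6% and 30.4% of all tested probe sets). The median of the macrophage list was 1.71 in the IL-15-/- mouse of replicate 2 and -1.48 in that of replicate 1, and the medians of the mature neutrophil list were -2.31 and 2.19. The NK and large granular lymphocyte list had medians of -0.25 and -0.17, with the same sign in both mice. Both medians lay near 0, so this list cannot show whether the populations turned. The study reports fewer NK cells and fewer CD8+ T cells where tumors lacked IL-15. The sign of every difference of the IL-15-/- mouse of replicate 1 depends on labels that were kept as deposited. Whether these labels were exchanged was not tested.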

How the data were processed

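RNA of sorted CD16/32HI and CD16/32LO tumor cells was measured on Affymetrix Gene 1.0 ST arrays. Each deposited value is the log2 signal of 1 probe set from RMA (background correction, normalization and summarization), which the authors ran in Affymetrix Expression Console. Arrays normalized together share identical values. By this mark the 4 arrays of replicate 1 form 1 set, and the IL-15+/+ arrays of replicate 2 another. Array medians of the 4 arrays were 5.62 to 5.93, and the number of arrays limits the precision. The genome build used for the arrays is not given in the sources used here.

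Genes were named through the platform annotation, with 21789 of 35557 probe sets carrying 1 symbol, 1621 several and 12147 not listed. CD16/32HI was compared with CD16/32LO by limma 3.58.1 (R 4.3.3) with the mouse as a fixed block. The replicate number pairs the arrays, since both populations of a number were taken as sorted from 1 mouse of a stated age. The correlation of same-mouse deviations was 0.361. Arrays of a replicate were also normalized together, so this value cannot tell mouse from normalization set. The test has 1 residual degree of freedom beside a prior of 9.41. Tested on simulated data, the fit recovered large changes, but the share of false calls varied and was often above the nominal level. The cause was not tested. The simulated sets held fewer changed probe sets than were called here, so that share need not hold for these data. The study's methods give a test between genotypes and none for this contrast.

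Genes were named by rule: the 12 largest called differences per direction, the receptors of the sort gate, up to 3 called genes per direction of each of 37 lists, and the first 4 members of the lists for the labelled cell types. Other list members are given by value to complete their group and were chosen after their values were seen. The members and lists were chosen with earlier results of these data known. Alternatives covered the block, the spread, centring, quantile normalization, a filter on dim probe sets, the probe sets tested, the variance prior, each array left out and that between-genotype test applied to this contrast. Promoter windows were taken from RefSeq (GRCm38.p6), using the first window of each gene, with python 3.11.15.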

Additional observations from a re-analysis of the deposited data

Results flagged for a closer look

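Egr1, an immediate early factor, had a negative difference (CD16/32HI minus CD16/32LO) in both IL-15+/+ mice and a positive one in both IL-15-/- mice, as labelled. It differed by -0.67 and -1.56 in the IL-15+/+ mice of replicates 1 and 2 and by 1.45 and 0.10 in the IL-15-/- mice (mean 0.78). The difference between the genotypes was not tested. It was picked out because both mice of one genotype had the opposite sign to both of the other. The turn in the IL-15-/- mouse of replicate 1 is not particular to Egr1, since 4.56% of called probe sets kept their sign there and its 2 arrays go against their labels. The IL-15-/- mouse of replicate 2 differed by 0.10 only.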

How the results depend on the processing

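The 2217 probe sets called (1013 higher in CD16/32HI, 1204 higher in CD16/32LO) depended strongly on how the spread was estimated. With no replicate block, so that the pairing by mouse was ignored, 611 were called (271 and 340), all among the 2217. With all 8 arrays sharing the spread 0 were called (0 and 0, with 1371 at an unadjusted p under 0.05). That fit gives the IL-15-/- mice 1 common difference, although as labelled they ran in opposite directions for most called probe sets. Their disagreement enters the spread, so this count cannot show how firm the calls are. With every probe set of the table tested 0 were called (0 and 0, with 3416 at an unadjusted p under 0.05), where the paired test of 1-symbol probe sets had 5181. With the prior degrees of freedom set to 4, an alternative chosen after seeing the data, 454 were called (190 and 264), all among the 2217. Leaving out 1 array, with the mouse term dropped, gave 631 to 1067 (264 to 529 higher in CD16/32HI and 338 to 682 higher in CD16/32LO), the lowest total without the CD16/32LO array of replicate 1. The side with more calls turned with scaling, with 1540 higher in CD16/32HI and 1296 in CD16/32LO after quantile normalization (2836 in all) and 1093 and 1008 after centring. The unpaired test with no shared spread, which the study's methods apply between genotypes, called 0 after Benjamini-Hochberg adjustment, 2009 at an unadjusted p under 0.05, and 225 of these at over 3-fold. The 693 probe sets at least 2-fold apart in both mice (296 and 397) became 204 (79 and 125) at 3-fold. Without replicate 1 the other mouse alone gave 1439 (675 and 764), and without replicate 2 it gave 1324 (661 and 663). Centring and the dim filter kept both kinds of count within 1.5 times. Of 140 called genes chosen by rule, 140 lost their call with 8 arrays or with all probe sets, 60 with the lower prior, 49 without the block and 1 (Flt3) with centring, and 0 of them turned their direction. The causes were not tested.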
